A study of Mus musculus with 12 samples.

Results

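The transcripts of the mitochondrial genome were compared in mouse colon with and without chemically induced colitis and ursolic acid. The members were chosen by symbol, as all 37 genes that begin with mt- of the 54532 genes in each count table. They comprise 13 coding genes, 2 ribosomal RNA (rRNA) genes and 22 transfer RNA (tRNA) genes. Colon RNA of male C57BL/6 mice, 6 weeks old on arrival, was sequenced in 4 groups of 3 libraries. By the methods the Con mice received the vehicle by gavage, while the labels call them untreated. The DSS mice drank 3% (w/v) dextran sulfate sodium (DSS, which injures the colon epithelium) for 5 days and received the vehicle. The UA+DSS mice received the same DSS and ursolic acid (UA, a triterpenoid found in many plants), gavaged at 200 mg/kg for 7 days from 1 day before DSS. In the DSS+UA group the same dose was given for 4 days from 3 days after the start of DSS, and the discussion of the study gives other treatment lengths for both UA groups. DSS 2 stands for replicate 2 of the DSS group, and the other libraries are written in the same way.

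The mitochondrial genome is a small circle of DNA that is present in many copies per cell. Both of its strands are transcribed as long precursors by the polymerase Polrmt with the factors Tfam and Tfb2m, and the precursors are cut mainly at the tRNAs. Its coding genes make core subunits of complexes I, III and IV of the respiratory chain and of the ATP synthase (complex V), its rRNAs and tRNAs serve translation inside the organelle, and all other subunits come from nuclear genes. Colonocytes, the absorptive cells of the colon surface, draw much of their energy from the oxidation of butyrate in mitochondria.

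Total counts were 15566216 to 19498383 per library (median 18569669). Levels are given as CPM, in which TMM factors put all libraries on 1 scale. Tests are from edgeR's quasi-likelihood method, fitted once to all 12 libraries and adjusted over the 17658 genes that passed its low-count filter. A gene was called changed at an adjusted p under 0.05. The labels name the samples as separate replicates and the methods name 3 colonic tissues of each group, so p-values measure the spread between these tissues. Epithelial markers (Epcam, Vil1 and 5 others) were detected in every library, at a summed 5944 to 17052 CPM. The 7 neutrophil markers summed to 2.33 to 4.28 CPM in Con and to 729 to 20434 CPM in DSS, highest in DSS 2. The 7 pancreatic acinar markers summed to 14920 CPM in DSS 3 and to at most 555 CPM in the others. A colon position score, the mean log2 CPM of 5 Hox genes used toward the rectum minus that of 6 used toward the caecum, was -5.70 to -4.16 in UA+DSS, 4.11 to 5.06 in DSS+UA, 0.37 to 3.10 in DSS and -3.03 to 5.53 in Con.

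Copies of mitochondrial DNA in the nuclear genome bear on which members can be counted apart. In the GENCODE annotation of GRCm38, 7 unprocessed pseudogenes lie side by side on the minus strand of chr1:24611535-24616197 and match mitochondrial genes from mt-Co1 to mt-Nd4. Gm28437 matched mt-Co3 at 783 of 783 aligned bases, Gm10925 matched mt-Atp6 at 678 of 678, Gm28661 matched mt-Co2 at 681 of 681 and Gm10222 matched mt-Nd4l at 294 of 294. Gm28439 matched the first 876 bases of mt-Nd4 at every base. The first 60 bases of mt-Co3 (chrM:8607-8666, plus strand) and of its copy (chr1:24613912-24613971, minus strand) are shown because no read inside them can tell the genomes apart.
mt-Co3: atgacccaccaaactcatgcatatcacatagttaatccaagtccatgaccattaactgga
Gm28437: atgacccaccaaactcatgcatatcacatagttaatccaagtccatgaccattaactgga

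mt-Nd3 and Gm28438 differed at 1 of 345 aligned bases, T3C counted from the first base of each. Gm29216 matched the last 492 bases of mt-Co1 at 486, and its 6 differences (T1056A, C1057T, A1059G, A1060G, C1062A and A1066T, counted from the first base of mt-Co1) lie within the first 13 bases of the copy. The starts of both pairs are shown with the differing bases in capitals, for mt-Nd3 at chrM:9459-9518, Gm28438 at chr1:24613060-24613119, mt-Co1 at chrM:6381-6440 and Gm29216 at chr1:24616138-24616197.
mt-Nd3: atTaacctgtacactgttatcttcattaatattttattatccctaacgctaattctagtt
Gm28438: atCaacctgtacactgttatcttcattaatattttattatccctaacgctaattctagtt
mt-Co1: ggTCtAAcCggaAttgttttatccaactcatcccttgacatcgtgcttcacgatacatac
Gm29216: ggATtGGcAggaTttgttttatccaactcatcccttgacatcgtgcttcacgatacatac

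Levels per length differed widely among the coding genes. Of the 13 coding genes, mt-Co2, mt-Atp6, mt-Co3, mt-Nd3 and mt-Nd4l had 98% to 100% of their stretches of 50 bases in annotated nuclear genes. Over the 12 libraries these 5 averaged 18.1 (mt-Nd4l), 54.0 (mt-Nd3), 77.1 (mt-Atp6), 116 (mt-Co2) and 137 (mt-Co3) CPM per kilobase. The others, apart from mt-Atp8, averaged from 1262 (mt-Nd5) to 14567 (mt-Co1) CPM per kilobase. Of these, mt-Nd4 and mt-Co1 had 62.2% and 51.1% of their stretches in annotated nuclear genes, and mt-Nd2 and mt-Nd5 had 8.19% and 7.61%. Divided by the unshared length alone, the averages would be 29788 for mt-Co1 and 4427 for mt-Nd4. mt-Cytb averaged 5675, mt-Nd1 4688, mt-Nd4 1673, mt-Nd2 1605 and mt-Nd6 1556 CPM per kilobase, and none of the 50-base stretches of mt-Cytb, mt-Nd1 or mt-Nd6 occurred in a nuclear gene. Adding the counts of the copies brought mt-Co2 to 185, mt-Atp6 to 160 and mt-Co3 to 181 CPM per kilobase. How reads that match several places were counted is not given in the sources used here, and its part in these levels was not tested.

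**Figure D1:**
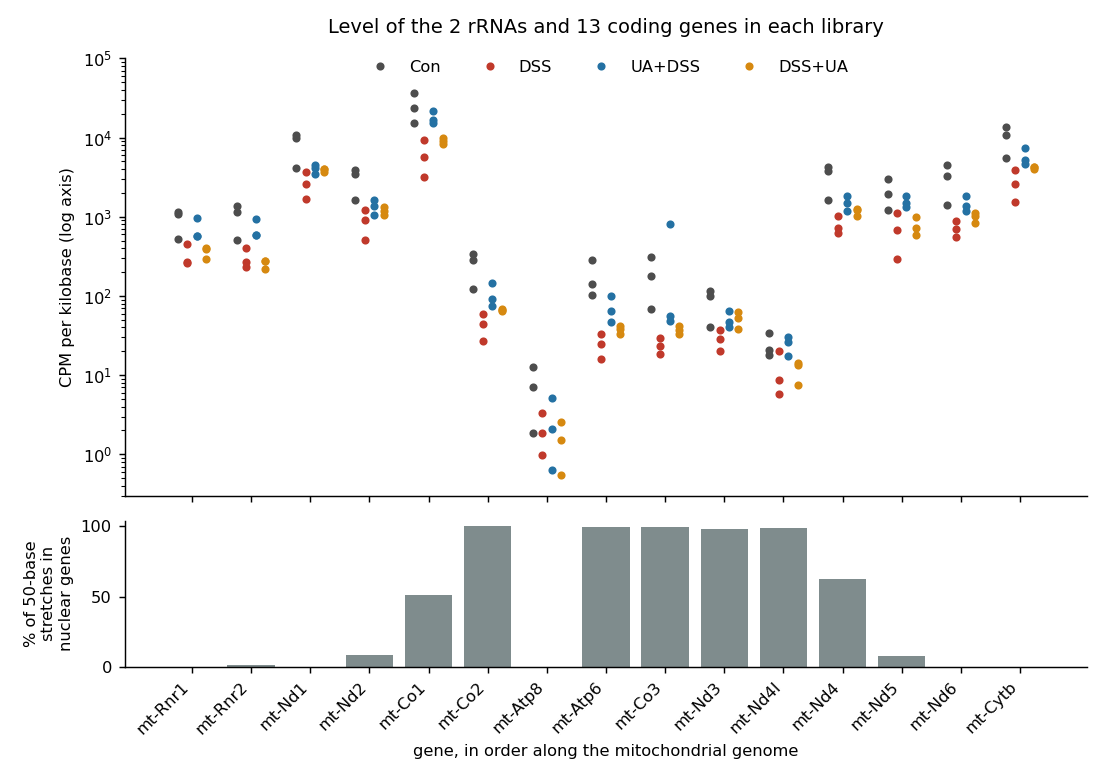
Upper panel: CPM per kilobase of gene (log axis) of the rRNA and coding genes in order along the mitochondrial genome, with 1 point per library coloured by group. Lower panel: percent of each gene's 50-base stretches that occur in annotated nuclear genes. The 5 genes at 98% or more average 18.1 to 137 CPM per kilobase, and mt-Co1 averages 14567.

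mt-Atp8, a small subunit of complex V, was the lowest coding gene at 3.35 CPM per kilobase, with 2 to 46 counts in a library. None of its 50-base stretches was found in an annotated nuclear gene, but copies outside annotated genes were not searched. The gap between Gm10925 (mt-Atp6), which ends at chr1:24614651, and Gm28661 (mt-Co2), which starts at chr1:24614885, was thus not searched for a copy of it. The last 43 of its 204 bases also belong to mt-Atp6, shown in capitals at the end of mt-Atp8 (chrM:7910-7969, plus strand).
end of mt-Atp8: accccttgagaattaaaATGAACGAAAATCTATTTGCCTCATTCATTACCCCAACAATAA

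The share of all counts assigned to the 37 genes was lowest on average in the DSS group. It was 7.84% in Con 1, 9.53% in Con 2 and 4.46% in Con 3, and 1.996% in DSS 1, 1.23% in DSS 2 and 2.93% in DSS 3. In UA+DSS it was 4.21%, 5.58% and 4.25%, and in DSS+UA it was 3.03%, 2.48% and 2.65%. The Con and DSS libraries did not overlap, nor did UA+DSS and DSS, whereas the DSS+UA values lay within the range of DSS apart from DSS+UA 1. Con 3 lay between the UA+DSS libraries. The group means were 7.28% ± 2.58 in Con, 2.05% ± 0.850 in DSS, 4.68% ± 0.781 in UA+DSS and 2.72% ± 0.281 in DSS+UA (SD, n = 3 each). Against DSS these means were 3.54 times as high in Con, 2.28 times in UA+DSS and 1.32 times in DSS+UA. The widest exact 95% binomial interval of a library was its share ± 0.0130 percentage points, which covers counting error only. Without DSS 2, the library with the lowest share and the highest neutrophil markers, the DSS mean was 2.46%. In bulk tissue, fewer cells of a type and less RNA per cell cannot be told apart, and the part of the changed cell types in these shares was not tested.

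**Figure D2:**
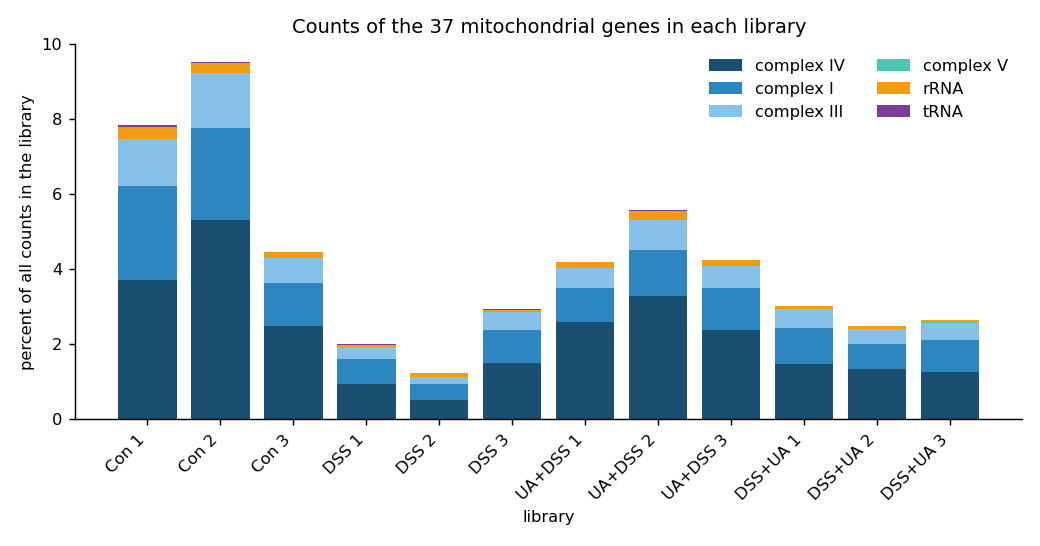
Percent of all counts of a library (vertical axis) assigned to the 37 mitochondrial genes in each of the 12 libraries (horizontal axis), stacked by complex and RNA class. The Con bars reach 4.46% to 9.53% and the DSS bars 1.23% to 2.93%, and complexes IV, I and III make up most of each bar.

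A few mRNAs made up most of these counts. mt-Co1, the catalytic subunit of cytochrome c oxidase (complex IV), held 52.6% ± 5.01 of the mitochondrial counts in Con, 46.7% ± 4.33 in DSS, 58.4% ± 2.91 in UA+DSS and 49.6% ± 3.37 in DSS+UA (SD, n = 3). The 7 complex I subunits together held 27.8% ± 3.61 in Con, 31.9% ± 1.29 in DSS, 23.2% ± 2.58 in UA+DSS and 30.1% ± 3.03 in DSS+UA. mt-Cytb, the core subunit of complex III, held between 12.7% and 17.8% in the 12 libraries. The 2 rRNAs held 2.29% to 4.12% in 11 libraries and 9.17% in DSS 2. The tRNA genes held 0.245% to 0.429%. DSS 2 thus had both the lowest mitochondrial share and the highest rRNA part of it.

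The comparison of DSS with Con describes the mitochondrial transcripts in the colitis model. All 27 members that passed the low-count filter had a lower fitted level in DSS, with a median log2 fold change of -1.57, where the median over all tested genes was -0.034. Of these, 14 fell by the test and none rose, beside 26.5% of all tested genes called and 12.6% lowered. They were 11 of the 13 coding genes, both rRNAs and 1 of 12 tested tRNAs. For 16 of the 27 every Con library lay above every DSS library, and 41.3% of all tested genes had groups apart in either direction.

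Complex I, which takes electrons from NADH, had 6 of its 7 mitochondrial transcripts lowered. mt-Nd1, a core membrane subunit, was at 9326, 10245 and 3905 CPM in Con and at 2448, 1628 and 3494 CPM in DSS, a log2 fold change of -1.63 ± 0.377 (SE, edgeR adjusted p = 0.011). mt-Nd6, the coding gene on the opposite strand of the genome from the others, was at 2319, 1700 and 733 CPM in Con and 360, 286 and 463 CPM in DSS, with a log2 fold change of -2.10 ± 0.378 (adjusted p = 0.00426). Each Con library lay above each DSS library for both genes. mt-Nd4, mt-Nd2, mt-Nd3 and mt-Nd5 fell by 2.03, 1.78, 1.57 and 1.53 on the log2 scale (adjusted p = 0.00392, 0.00817, 0.0137 and 0.0327). The groups overlapped for mt-Nd4l, whose log2 fold change of -1.08 did not pass (adjusted p = 0.106).

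mt-Cytb of complex III was at 12435, 15754 and 6299 CPM in Con and 2984, 1778 and 4511 CPM in DSS, a log2 fold change of -1.89 ± 0.408 (adjusted p = 0.00832). All 3 mitochondrial subunits of complex IV, which passes electrons to oxygen, fell. mt-Co1 was at 36150, 57031 and 23419 CPM in Con and 8715, 4962 and 14448 CPM in DSS (log2 fold change -2.05 ± 0.439, adjusted p = 0.00813). mt-Co2 was at 194.5, 232 and 84.4 CPM in Con and 29.9, 18.3 and 40.1 CPM in DSS (-2.53 ± 0.400, adjusted p = 0.003). Of complex V, mt-Atp6, part of the proton channel, was at 96.9, 193 and 69.4 CPM in Con and 17.1, 11.0 and 22.3 CPM in DSS (-2.83 ± 0.416, adjusted p = 0.00243), while mt-Atp8 did not pass (-1.77 ± 0.824, adjusted p = 0.13). For mt-Cytb, mt-Co1, mt-Co2 and mt-Atp6 the lowest library of all was DSS 2 and the lowest of Con was Con 3.

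mt-Co3 was at 242, 138 and 53.7 CPM in Con and 18.1, 14.4 and 22.8 CPM in DSS. Its log2 fold change was -2.97 ± 0.989 (adjusted p = 0.0481), and it passed in only 8 of 22 alternative analyses. mt-Nd5 passed in 16 of 22, and the other 12 called members in 20 or more. The fit of only the 2 groups compared called 6 members in place of 14. Without DSS 2, the library with the highest neutrophil markers, 12 were called, and with the position score as a covariate 13. Colonocyte markers summed to 6506 to 21752 CPM in Con and 3117 to 10460 CPM in DSS, with 9 of 10 lower and none called, 3 of them at an unadjusted p under 0.05. Epithelial markers summed to 9816 to 13617 CPM in Con against 5944 to 8873 CPM in DSS, with 7 of 7 lower and 1 called. Of the other cell types, 7 of 7 neutrophil, 7 of 8 macrophage, 5 of 7 fibroblast, 5 of 7 T cell, 2 of 6 B and plasma cell and 5 of 6 tested pancreatic acinar markers rose. The acinar markers were high in DSS 3 alone, and DSS 1 (88.2 CPM) and DSS 2 (31.5 CPM) lay below Con (143 to 555 CPM). Goblet cell markers were lower in 7 of 7 (1 called) and smooth muscle markers in 8 of 8 (0 called). The part of cell content in the 14 calls was not tested.

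Both rRNAs of the mitochondrial ribosome fell. mt-Rnr2, the large rRNA, was at 2149, 1803 and 807 CPM in Con and 363, 644 and 429.5 CPM in DSS (-1.73 ± 0.363, adjusted p = 0.00758), and mt-Rnr1, the small one, at 1038, 1092 and 506 against 256, 436 and 248.5 CPM (-1.49 ± 0.349, adjusted p = 0.0118). In contrast to the mRNAs, both rRNAs were higher in DSS 2 than in DSS 1 and DSS 3.

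Most tRNA genes were scarcely counted. Of the 22, 10 failed the filter with at most 5 counts in a library, and mt-Tf, mt-Ts1 and mt-Td had no count in any library. The highest were mt-Tp (proline) at 1443, mt-Tc (cysteine) at 152, mt-Tn (asparagine) at 97.99 and mt-Tl2 (leucine) at 56.7 CPM per kilobase. Of these mt-Tp, mt-Tc and mt-Tn lie on the minus strand, which carries 8 of the 22 tRNA genes, and the use of strand in the counting is not given in the sources used here. mt-Tt, the gene beside mt-Tp on the plus strand, was at 0.67 CPM per kilobase. mt-Tp (chrM:15356-15422) and mt-Te (glutamate, chrM:14071-14139), the tRNA genes called in any comparison, are shown as transcribed with the anticodon in capitals.
mt-Tp: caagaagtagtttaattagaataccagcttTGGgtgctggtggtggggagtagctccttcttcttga
mt-Te: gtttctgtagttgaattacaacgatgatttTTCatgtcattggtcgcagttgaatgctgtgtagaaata

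mt-Tp was at 231, 201 and 89.5 CPM in Con and 40.7, 35.6 and 56.8 CPM in DSS, a log2 fold change of -1.97 ± 0.319 (adjusted p = 0.00311), and it passed in 22 of 22 alternatives. The other 11 tested tRNAs had log2 fold changes of -1.57 (mt-Te) to -0.27 (mt-Tw) and adjusted p of 0.0573 to 0.738.

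**Figure D3:**
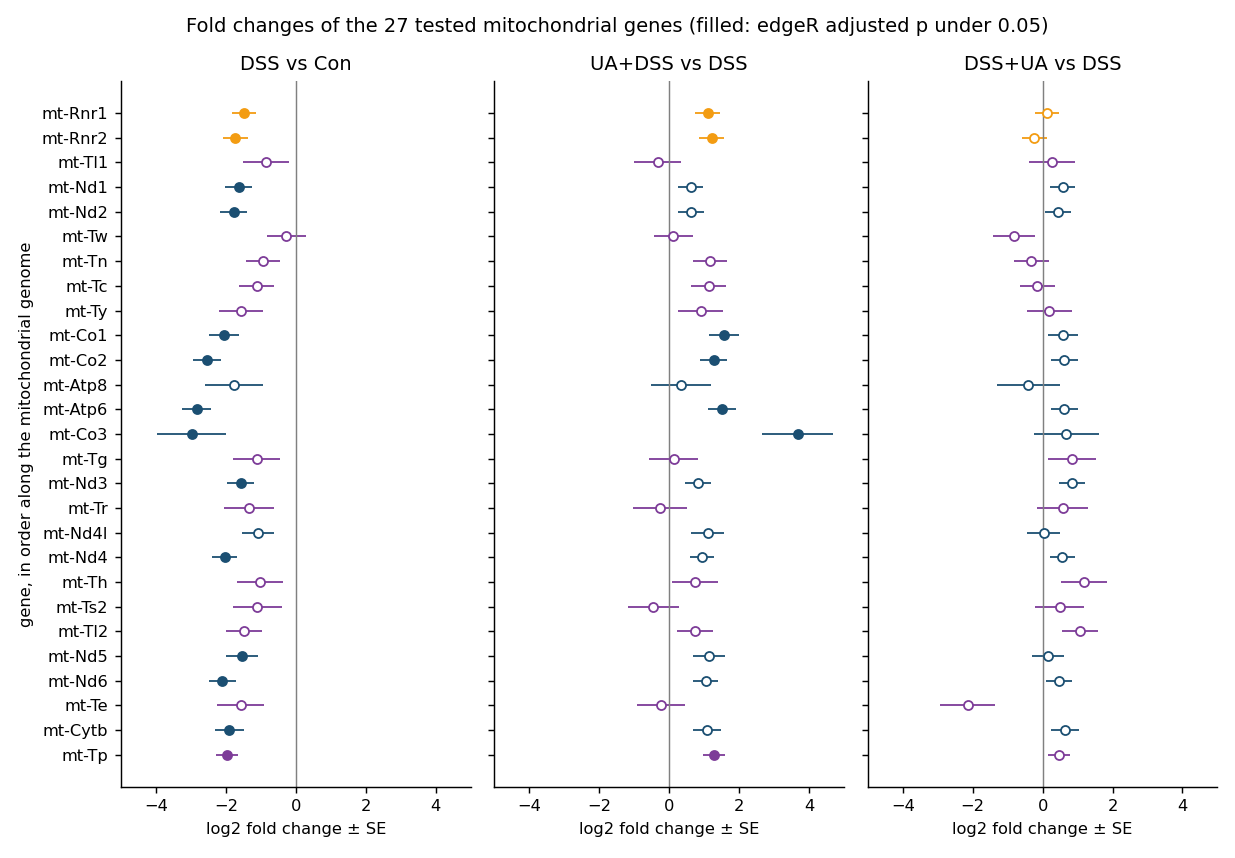
Log2 fold change ± SE (horizontal axis) of the 27 tested mitochondrial genes in order along the genome (vertical axis) for 3 comparisons, with coding genes in blue, rRNAs in orange and tRNAs in purple. Filled points pass the test: 14 in DSS against Con, 7 in UA+DSS against DSS and 0 in DSS+UA against DSS.

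The comparison of UA+DSS with DSS addresses UA given from before the injury. It shares the DSS libraries with the comparison above. Of the 27 tested members 23 had a higher fitted level in UA+DSS (median log2 fold change 0.94), and 7 rose by the test while none fell. Among all tested genes 18.7% were called and 8.21% raised. For 14 of the 27 the groups were apart, beside 42.8% of all tested genes. The 7 were mt-Co1, mt-Co2, mt-Co3, mt-Atp6, mt-Rnr1, mt-Rnr2 and mt-Tp. None of the 7 complex I transcripts passed (log2 fold changes 0.61 to 1.14, adjusted p = 0.0677 to 0.268).

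mt-Co1 was at 25823, 33551 and 23753 CPM in UA+DSS, each above the DSS libraries, with a log2 fold change of 1.56 ± 0.432 (adjusted p = 0.0311). mt-Atp6 was at 43.5, 67.5 and 31.8 CPM (1.504 ± 0.398, adjusted p = 0.0276), mt-Rnr2 at 940, 1463 and 944 CPM (1.22 ± 0.358, adjusted p = 0.0375) and mt-Tp at 92.9, 130 and 98.3 CPM (1.27 ± 0.313, adjusted p = 0.0209). Each of these libraries lay above every DSS library too. mt-Cytb was at 5311, 8479 and 5973 CPM, also above every DSS library, but did not pass (1.09 ± 0.400, adjusted p = 0.0773). mt-Co3 was at 43.2, 627 and 37.6 CPM. UA+DSS 2 stood apart from every other library for this gene, and its copy Gm28437 reached 64.7 CPM there beside 32.0 and 29.1 CPM in the other UA+DSS libraries. The log2 fold change of mt-Co3 was 3.68 ± 1.02 (adjusted p = 0.0332), and 1.14 (adjusted p = 0.166) without UA+DSS 2.

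These calls rest on single libraries. The count of 7 went to 0 without DSS 1 or without UA+DSS 2, to 2 without DSS 2, UA+DSS 1, UA+DSS 3 or DSS+UA 3, to 4 without DSS+UA 1 or DSS+UA 2, and was 10 at most. With the colon position score as a covariate it was 0, and the score did not overlap between UA+DSS (-5.70 to -4.16) and DSS (0.37 to 3.10). Of 10 colonocyte markers, all detected in each group, 9 were higher in UA+DSS than in DSS and 1 passed the test, and they summed to 20027 to 26086 CPM in UA+DSS against 3117 to 10460 CPM in DSS. In the same comparison 7 of 7 neutrophil markers fell (median log2 fold change -7.56), as did 4 of 7 fibroblast markers (-1.57), 4 of 8 macrophage markers (-1.53), 3 of 6 B and plasma cell markers (-2.61) and 5 of 6 tested pancreatic acinar markers, which were high in DSS 3 alone. Of 7 epithelial markers 2 rose, and no goblet cell, smooth muscle or T cell marker passed. The part of cell content in the 7 calls was not tested, and that of position was not tested beyond the covariate.

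UA given after the start of DSS was compared in DSS+UA against DSS. None of the 27 members passed edgeR's test, 2 had an unadjusted p under 0.05, and DESeq2 called 1 (mt-Te, lower) and limma-voom 0, beside 7.54% of all tested genes called by edgeR. For 7 of the 27 the groups were apart, beside 34.7% of all tested genes. The coding genes had a median log2 fold change of 0.57 (-0.41 to 0.84). mt-Co1 was at 14011, 15269 and 12933 CPM in DSS+UA, overlapping DSS, with a log2 fold change of 0.59 ± 0.424 (adjusted p = 0.377). mt-Cytb was at 4878, 4655 and 4852 CPM, above the highest DSS library, with a log2 fold change of 0.63 ± 0.397 (adjusted p = 0.306). The 2 rRNAs had log2 fold changes of 0.14 (mt-Rnr1) and -0.24 (mt-Rnr2). The colon position score did not overlap between DSS+UA (4.11 to 5.06) and DSS (0.37 to 3.10). Standard errors were 0.342 to 0.467 for the rRNAs and for the coding genes other than mt-Co3 and mt-Atp8, so a p that misses the threshold here does not show that the groups were alike.

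The comparisons with Con share its libraries with the first comparison. In DSS+UA against Con 11 members were lowered and none raised, beside 18.1% of all tested genes called and 8.95% lowered, and 16 of the 27 had groups apart, beside 38.9% of all tested genes. The lowered members were mt-Nd2, mt-Nd4, mt-Nd6, mt-Cytb, mt-Co1, mt-Co2, mt-Atp6, both rRNAs, mt-Tp and mt-Te. The log2 fold changes were -2.21 ± 0.405 for mt-Atp6 (adjusted p = 0.00775), -1.97 ± 0.366 for mt-Rnr2 (0.00782), -1.47 ± 0.431 for mt-Co1 (0.0386) and -1.26 ± 0.401 for mt-Cytb, whose adjusted p of 0.05 passed before rounding and in 7 of 22 alternatives. mt-Te had 51, 57 and 33 counts in Con and 4, 1 and 5 counts in DSS+UA (-3.71 ± 0.779, adjusted p = 0.012). The count of 11 was 4 without DSS+UA 3, 5 without DSS+UA 2, 6 without DSS+UA 1 or Con 2, and 7 with the position score as a covariate. Of the markers, 7 of 7 for neutrophils rose (median log2 fold change 8.77), and 4 of 8 for smooth muscle fell (-1.85, summed CPM of 1290 to 4062 in Con and 532 to 953 in DSS+UA). No colonocyte or epithelial marker was called. Of the colonocyte markers 8 of 10 were lower (median -0.98), 2 at an unadjusted p under 0.05, and of the epithelial ones 5 of 7 were higher. The part of cell content in the 11 calls was not tested.

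In UA+DSS against Con none of the 27 passed edgeR's test, 8 had an unadjusted p under 0.05, and DESeq2 and limma-voom called 0. Here 0.00566% of all tested genes were called, so that the absence of calls says little about these members. Their median log2 fold change was -0.74, and 23 of 27 were lower. The groups were apart for 3 of the 27, beside 20.6% of all tested genes, and mt-Atp6 was the 1 coding gene among them (-1.33 ± 0.394, adjusted p = 0.276).

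The 2 schedules of UA were compared directly in UA+DSS against DSS+UA. mt-Rnr2 was the 1 member called, and it was higher in UA+DSS, beside 16.8% of all tested genes called and 7.54% raised. The groups were apart for 15 of the 27, beside 45.3% of all tested genes. The UA+DSS libraries of mt-Rnr2 (940, 1463 and 944 CPM) all lay above the DSS+UA ones (435, 432 and 348 CPM), with a log2 fold change of 1.46 ± 0.360 (adjusted p = 0.0218). The call was lost without UA+DSS 2 and without any 1 of the DSS+UA libraries (adjusted p = 0.0525 to 0.0902). It was lost too with the position score as a covariate, a score on which these groups lie farthest apart. mt-Co1 had a log2 fold change of 0.98 ± 0.426 (adjusted p = 0.132), and each UA+DSS library lay above each DSS+UA library. For mt-Nd1 and mt-Nd3 the values were 0.04 ± 0.368 and -0.015 ± 0.374. Of the markers, 4 of 8 for smooth muscle (median log2 fold change 1.73) and 1 of 10 for colonocytes (0.54) were higher in UA+DSS by the test. Lower were 2 of 6 for B and plasma cells (-2.18) and 1 of 7 for neutrophils (-3.89). No goblet cell, epithelial, fibroblast, macrophage or T cell marker was called. The part of cell content in the mt-Rnr2 call was not tested.

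The nuclear copies were tested in the same fit. In DSS against Con, 7 of the 8 tested copies fell, beside 26.5% of all tested genes called and 12.6% lowered. Gm10925 (mt-Atp6) was at 118 ± 67.25 CPM in Con and 21.0 ± 9.28 CPM in DSS (SD, n = 3), with a log2 fold change of -2.49 ± 0.473 (adjusted p = 0.00556). Gm28661 (mt-Co2) had -2.44 ± 0.422 (adjusted p = 0.00389). Gm10222 (mt-Nd4l) did not pass (-1.45 ± 0.607, adjusted p = 0.0961). Against DSS, UA+DSS had raised levels of Gm29216 (mt-Co1), Gm28437 (mt-Co3), Gm28661 and Gm13340 (mt-Co1, on chromosome 2), by log2 fold changes of 2.41, 1.82, 1.31 and 1.96 (adjusted p = 0.0156, 0.0193, 0.0465 and 0.0287). Of all tested genes 18.7% were called and 8.21% raised there. UA+DSS 2 had 102 CPM of Gm29216, where UA+DSS 1 and UA+DSS 3 had 21.3 and 22.4 CPM, and so stood apart within its group for this copy as for mt-Co3. Without UA+DSS 2 the log2 fold changes were 1.26 for Gm29216 (adjusted p = 0.0214), 1.36 for Gm28437 (0.085), 0.78 for Gm28661 (0.205) and 1.505 for Gm13340 (0.124), so that only Gm29216 of these 4 still passed. Without DSS 2 none of the 4 passed (adjusted p = 0.051 to 0.143), without DSS 1 only Gm29216 did, and Gm28661 was also lost without most other single libraries. Of 22 alternatives, Gm29216 passed in 19, Gm28437 in 18, Gm28661 in 6 and Gm13340 in 16. Their highest adjusted p (0.165, 0.16, 0.288 and 0.299) came from alternatives that left out no library. In DSS against Con, Gm28439 was lost without Con 2 (-1.36, adjusted p = 0.0719). Reads of these copies and of the mitochondrial genes cannot be told apart where the bases are identical.

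The nuclear genes of the same complexes had smaller fold changes in DSS against Con at the median. Over 71 nuclear subunits of complexes I, III, IV and V, 24 fell in DSS against Con and none rose, beside 12.6% of all tested genes lowered, with a median log2 fold change of -0.59 where the 13 mitochondrial coding genes had -1.89. The difference of the medians was not tested. Cox6a1 and Cox6c (complex IV) fell by 0.91 and 1.13 on the log2 scale (adjusted p = 0.022 and 0.021), Ndufb2 and Ndufb9 (complex I) by 1.36 and 1.13 (0.00661 and 0.012), Uqcrb and Uqcrh (complex III) by 0.87 and 0.84 (0.0167 and 0.0401), and Atp5j and Atp5h (complex V) by 0.74 and 0.72 (0.0265 and 0.031). Of complex II, which has no mitochondrial gene, Sdhb fell by 0.71 (adjusted p = 0.0274) and Sdhc had -0.52 (0.0856). The 24 calls became 3 without Con 2 or without DSS 2, 5 without Con 1, 12 without DSS 3, 14 without DSS 1 and 6 in the fit of the 2 groups alone.

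For the late treatment, the difference between the nuclear and the mitochondrial genes was not tested. In DSS+UA against DSS 46 of the 71 nuclear subunits rose and none fell (median log2 fold change 0.90), beside 2.54% of all tested genes raised. Cox6a1 went from 384, 283 and 430 CPM in DSS to 581, 1068 and 701 CPM in DSS+UA (1.10 ± 0.249, adjusted p = 0.0311). The 46 calls became 0 without DSS+UA 2 or DSS+UA 3 and in the fit of the 2 groups alone, 2 without DSS 2, 1 with the position score, 4 with the replicate block, 27 with library size alone as the scale, and 12 to 28 without UA+DSS 1, UA+DSS 2, UA+DSS 3, DSS 3 or Con 2. Of the 7 epithelial markers 3 rose as well, with summed values of 11922 to 17052 CPM in DSS+UA and 5944 to 8873 CPM in DSS. In the same comparison 2 of 7 fibroblast, 1 of 7 neutrophil and 2 of 6 tested pancreatic acinar markers fell. No colonocyte, goblet cell, smooth muscle, macrophage, B and plasma cell or T cell marker was called. The part of cell content in the 46 calls was not tested. In UA+DSS against DSS 7 of the 71 rose (median 0.53), a share close to the 8.21% of all tested genes raised, and this count became 0 without DSS 1, DSS 2 or UA+DSS 2 and with the position score, and 19 with DESeq2.

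Set against each other, the 13 mitochondrial coding genes summed to 71496 ± 29700 CPM in Con, 18713 ± 8574 in DSS, 45603 ± 8507 in UA+DSS and 27503 ± 871 in DSS+UA. The 71 nuclear genes summed to 17857 ± 1847, 12430 ± 2746, 18466 ± 1519 and 22753 ± 5140 CPM in the same order (SD, n = 3). The ratio of the sums was 4.13, 5.08 and 2.54 in Con, 1.26, 1.15 and 1.997 in DSS, 2.35, 2.75 and 2.27 in UA+DSS and 1.55, 0.974 and 1.23 in DSS+UA. Con lay above DSS and DSS+UA in this ratio, UA+DSS lay above DSS and DSS+UA, and DSS and DSS+UA overlapped. DSS+UA 2 was the library in which nuclear subunits outweighed the mitochondrial ones.

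**Figure D4:**
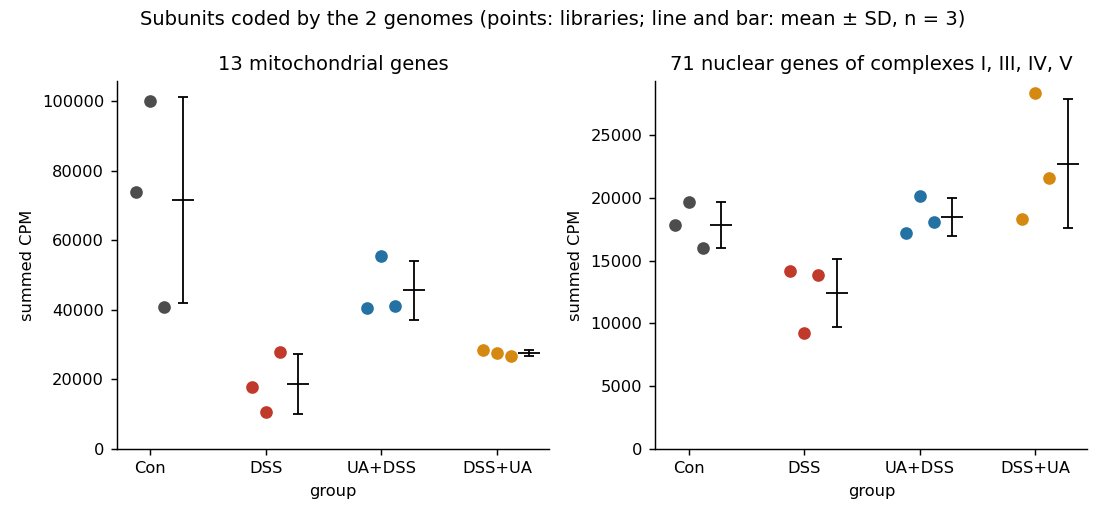
Summed CPM (vertical axes, from 0) of the 13 mitochondrial coding genes and of 71 nuclear subunit genes of complexes I, III, IV and V in each group, with points for libraries and a line and bar for the mean ± SD. The mitochondrial sum in DSS+UA (mean 27503) lies within the range of DSS or just above it, while the nuclear sum in DSS+UA (mean 22753) lies above DSS in every library.

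Of 18 genes that transcribe or copy mitochondrial DNA, 3 fell and none rose in DSS against Con, with a median log2 fold change of -0.23. Since 12.6% of all tested genes were lowered, that count is near the background. The lowered genes were Polg2, the accessory subunit of the DNA polymerase (-1.63), the primase-polymerase Primpol (-1.18) and Mterf2 (-1.10), which are named here after their values were seen. Polrmt was at 25.8, 22.4 and 20.3 CPM in Con and 26.3, 18.2 and 23.4 CPM in DSS (log2 fold change -0.015 ± 0.167, adjusted p = 0.956). Tfam, which packs mitochondrial DNA and starts its transcription, was at 48.4, 62.6 and 56.9 CPM in Con and 52.3, 40.7 and 53.5 CPM in DSS (-0.20 ± 0.141, adjusted p = 0.316). Neither gene separated the groups. Tfb2m, Tefm, Tfb1m, Mterf3, the helicase Twnk, Polg and Ssbp1 had adjusted p of 0.0809 (Twnk) to 0.979 (Tefm). Polg2 and Primpol rose in UA+DSS against DSS, beside 8.21% of all tested genes raised. In DSS+UA against DSS none of the 18 was called, with 2 at an unadjusted p under 0.05, beside 7.54% of all tested genes called.

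Of 22 matched genes that cut, protect or degrade mitochondrial RNA, 2 rose and 3 fell in DSS. With 26.5% of all tested genes called and 12.6% lowered, these counts do not stand above the background. Fastk, a regulator of mt-Nd6 RNA, fell from 104.6 to 55.9 CPM (group means; log2 fold change -0.90), Fastkd1 and Angel2 fell by 0.96 and 0.49, and Rexo2, an exonuclease of short RNA, and Ddx28 rose by 0.79 and 0.70. These 5, and Ptcd2 and Esrrg below, are named after their values were seen. Among the members of this list fixed for naming, Lrpprc, Slirp, Pnpt1, Elac2, Trmt10c, Hsd17b10, Fastkd5 and Grsf1 had adjusted p of 0.0506 (Hsd17b10) to 0.928 (Fastkd5). Fastk rose and Rexo2 fell in UA+DSS against DSS, beside 18.7% of all tested genes called. In DSS+UA against DSS Fastk and Ptcd2 rose, beside 2.54% of all tested genes raised.

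Among 10 tested regulators of mitochondrial biogenesis, 3 fell and 1 rose in DSS, beside 26.5% of all tested genes called and 12.6% lowered. Ppargc1a, the coactivator PGC-1α that drives mitochondrial gene programs, was at 30.8, 37.6 and 31.7 CPM in Con, 10.8, 6.41 and 8.29 CPM in DSS, 19.8, 71.8 and 37.3 CPM in UA+DSS, and at 14.1, 18.9 and 20.2 CPM in DSS+UA. It fell in DSS against Con (-1.97 ± 0.390, adjusted p = 0.00608) and rose in UA+DSS against DSS (2.33 ± 0.395, adjusted p = 0.00972). Within UA+DSS its libraries spread widely, with UA+DSS 2 the highest. In DSS+UA against DSS the log2 fold change was 1.06 ± 0.383 (adjusted p = 0.097), though the libraries did not overlap. Its relative Ppargc1b fell in DSS (-1.07, adjusted p = 0.0176) and rose in UA+DSS against DSS (1.39, adjusted p = 0.0127). The nuclear receptor Esrrg fell (-2.53) and Nrf1, a factor for nuclear genes of the respiratory chain, rose by 0.45 (adjusted p = 0.0403) in DSS. Esrra, a receptor that works with PGC-1α, did not pass in DSS (-0.42, adjusted p = 0.114) and rose against DSS in UA+DSS (0.68, adjusted p = 0.0311) and DSS+UA (0.77, adjusted p = 0.0374). Against DSS, 3 of the 10 rose in UA+DSS and 1 in DSS+UA, beside 8.21% and 2.54% of all tested genes raised. Results under the alternatives are not given here for these regulators.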

How the data were processed

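The authors mapped the reads of TruSeq libraries to GRCm38 with Hisat2 after FastQC, and deposited raw counts for each Ensembl gene, as whole numbers that were not normalized. Per the labels the processing also used Cuffdiff. The annotation release, strand use and treatment of reads that match several places are matters not given in the sources at hand. RNA came from Trizol per the labels and an RNeasy kit per the methods. The 123 genes without a name in GENCODE M21 (0.0297% of counts) were kept.

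Counts were tested with edgeR 4.0.16 in R 4.3.3 (filterByExpr, TMM factors of 0.871 to 1.09, robust quasi-likelihood fit of 12 libraries, no covariates, Benjamini-Hochberg adjustment over 17658 genes). Tested on simulated data for DSS against Con, it called 57.5% of 200 genes altered by 2 on the log2 scale (6 of 121 calls false, 17336 genes) and 0 of 200 altered by 1 (17328 genes). Shares and ratios over the members carry no test. Shared stretches of 50 bases were found in GENCODE M21 transcripts, from which the printed sequences were read. Copies outside annotated genes were not searched. Other steps used Python 3.11.15.

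The members, lists, tests and alternatives were chosen with earlier results of these data known. Named genes were all mt- genes, 21 fixed regulators, the 2 genes with the smallest p of each complex in DSS against Con, and copies over 10 CPM. Copies under 10 CPM are named where they match a member described. Of the listed genes 1 (Prorp) was not matched. Alternatives were DESeq2 1.42.0, limma-voom (limma 3.58.1), other scaling and filters, the 2 groups alone, the replicate number as a block, the position score and leaving out each library.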

Additional observations from a re-analysis of the deposited data

Results flagged for a closer look

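mt-Rnr2, the large mitochondrial rRNA, was higher in UA+DSS than in DSS+UA by 1.46 on the log2 scale (SE 0.360, edgeR adjusted p = 0.0218). It was the 1 member called of 27, beside 7.54% of all tested genes raised. The early and late groups did not overlap in the colon position score (-5.70 to -4.16 in UA+DSS and 4.11 to 5.06 in DSS+UA). The test therefore does not separate the schedule of UA from position. Some markers of smooth muscle, colonocytes, B and plasma cells and neutrophils were also called between these groups. The part of cell content was not tested. Against DSS, the libraries that both groups share as reference, the log2 fold change of mt-Rnr2 was 1.22 (adjusted p = 0.0375) in UA+DSS and -0.24 (adjusted p = 0.677) in DSS+UA. Over the alternatives its log2 fold change between these 2 groups was 1.22 to 1.88 and its adjusted p 0.00109 to 0.323, the highest of each with the position score as a covariate. Groups of 3 libraries are too small for a test of single outlying libraries.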

How the results depend on the processing

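Of 132 counts of called mitochondrial genes under an alternative, 100 were within 1.5 times the reported count. These include UA+DSS against Con, where the reported count was 0 and no alternative called a member. They also include DSS+UA against DSS, where it was 0 and only DESeq2 called any. The 100 therefore say little about the comparisons that had calls. All 24 alternative mean shares moved by less than 1 SD. Where 1 of 3 libraries was left out this was fixed in advance, as such a mean cannot move that far. The fit of only the 2 groups compared called 6 genes in DSS against Con. In UA+DSS against DSS the count was 11 with DESeq2, 4 without the low-count filter, in the fit of the 2 groups and with the replicate block, and 0 with the colon position score. In DSS+UA against DSS DESeq2 called 1, and in DSS+UA against Con the position score left 7. In UA+DSS against DSS+UA the count was 4 with DESeq2, 2 with at least 10 counts in every sample, 7 in the fit of the 2 groups, 2 with the replicate block and 0 with the position score. Leaving out 1 library gave 0 to 10 calls in UA+DSS against DSS, 4 to 13 in DSS+UA against Con and 0 to 4 in UA+DSS against DSS+UA.

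Single-gene log2 fold changes under an alternative were compared for the 13 coding genes in DSS against Con, UA+DSS against DSS and DSS+UA against DSS. Of these 853, 764 kept their direction and side of the threshold, 63 were no longer past it, 12 were newly past it and 14 changed sign. Most were not called to begin with, none of them in DSS+UA against DSS, and so had no call to lose. The rRNAs, tRNAs and other comparisons are not among the 853. In UA+DSS against DSS mt-Rnr1 passed in 9, mt-Rnr2 in 13 and mt-Tp in 17 of 22 alternatives. In DSS+UA against Con mt-Co1 passed in 11 and mt-Cytb in 7 of 22. mt-Atp8 in UA+DSS against DSS was -0.12 with the position score and -0.57 to 0.86 when 1 library was left out. In DSS+UA against DSS mt-Nd4l was -0.081 by library size, -0.001 with upper-quartile factors, -0.012 with scaling from other genes, -0.019 in the fit of the 2 groups and -0.28 to 0.71 when 1 library was left out. There mt-Nd5 was -0.21 to 0.68 and mt-Atp8 -0.99 to 0.12 when 1 library was left out. The cause of these shifts was not tested.

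The replicate numbers showed no clear pairing of the samples. The deviations of 18 same-numbered pairs had correlations of -0.216 to 0.187, of which 5 were over 0.1, and those of differently numbered pairs were -0.289 to 0.24. Such correlations cannot exclude a pairing. With the replicate block the count was 12 in DSS against Con and 8 in DSS+UA against Con. With 3 libraries a group and a biological coefficient of variation of 0.352, changes of 1 on the log2 scale were not called in simulated data with 200 altered genes. In the data themselves 26.5% of all tested genes were called in DSS against Con, Nrf1 among them at a change smaller than 1. The simulation therefore does not give the reach of the test there.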
